A study of Rattus norvegicus with 9 samples.

Results

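The non-collagen core of the basement membrane was followed through 9 genes: the laminin chains Lama2, Lama4, Lama5, Lamb1, Lamb2 and Lamc1, the nidogens Nid1 and Nid2, and perlecan (Hspg2). They were picked by gene symbol, and all 9 were found among the 26401 genes kept from the deposited expression table. The cells were S31, wild-type primary vascular smooth muscle cells grown out of small heart vessels of male Wistar Kyoto rats, and every group had 48 h without serum, in medium holding 0.02% lactalbumin hydrolysate, before treatment. RNA was sequenced from 3 sets of 3 libraries. The control set, named LH-NS in the table, received the same medium with no growth factor and was harvested at 24 h. For the other two sets the table and the sample records disagree. The columns named IGF-NS belong to records that name recombinant rat PDGF-BB (25 ng/ml, harvested at 48 h), and the columns named PDGF-NS belong to records that name recombinant human IGF-1 (25 ng/ml, harvested at 24 h). The sets are therefore called by their column names, and no difference below is assigned to a growth factor. If the harvest times follow the records, IGF-NS also differs by time from both control and PDGF-NS. Factor and time cannot be told apart in either comparison.

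Laminins are cross-shaped proteins built from 1 alpha, 1 beta and 1 gamma chain. The alpha chain carries the main binding sites for cell-surface receptors, and the Lamc1 product is the gamma chain shared by most laminins. Laminin networks and the collagen IV network form separately, and nidogens and perlecan, a large heparan sulfate proteoglycan, bridge them. Each smooth muscle cell of a vessel wall is wrapped in such a membrane.

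Values are FPKM (fragments per kilobase of transcript, scaled to library size), which are per length, so levels of different genes can be set side by side. The FPKM of a library summed to between 616765 and 748000, and 11047 to 11348 genes reached 1 FPKM. The number of reads was not given, but the spacing of low values gave depths of 0.66 to 1.33 times that of the first control library. Whether the libraries are separate cultures is not stated in the labels, which list S31 both as a cell line and as primary cells, so a p-value speaks only of the spread between these libraries, which may be technical. Tests were made with limma on log2(FPKM + 1) over the 11376 genes averaging 1 FPKM or more across the 9 libraries, and a gene was called at a Benjamini-Hochberg adjusted p under 0.05 over all of them. The median gene was shifted by 0.15 in IGF-NS and by 0.13 in PDGF-NS against control on this log2 scale. Of all calls, 69.9% in IGF-NS against control, 66.9% in PDGF-NS against control and 52.5% between the treated sets were higher. After median ratio scaling these shares were 49.1%, 51.8% and 56.4%, and after rescaling to a common sum 68.2%, 50.3% and 33.2%.

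The smooth muscle identity of the cells was checked against 10 markers. Tagln, an actin-binding protein of smooth muscle, stood at 2105 ± 518 FPKM in control (SD, n = 3), 358 ± 13.6 in IGF-NS and 211 ± 37.5 in PDGF-NS, and Myh11, the smooth muscle myosin heavy chain, stood at only 1.77 ± 0.724, 0.404 ± 0.0894 and 0.654 ± 0.0718. The 10 markers summed to 3881 to 5384 FPKM over the control libraries, 1128 to 1238 over those of IGF-NS and 1066 to 1219 over those of PDGF-NS. Of 9 that were tested, 8 fell in each treated set against control and 1 rose in PDGF-NS. Among all tested genes, 7.48% fell and 17.4% rose in IGF-NS, and 10.2% fell and 20.7% rose in PDGF-NS. Of 10 endothelial markers, 8 stayed under 1 FPKM in every library, and 4 of these, Cdh5, Kdr, Emcn and Cldn5, were listed at 0 throughout. Also listed at 0 in every library were Ptprc, Aif1 and Fcgr1a of leukocytes and Myh6, Myl7 and Myl2 of heart muscle. The same held for Sox10 and Cdh19 of Schwann cells and Rgs5 and Higd1b of pericytes. Other genes of the marker lists were expressed. In control, endothelial Erg averaged 7.98 FPKM, macrophage Cd14 23.5, heart Tnnt2 15.0, fibroblast Lum 340 and mesothelial Upk3b 188. Among pericyte markers, Abcc9 averaged 54.0 FPKM in control and 139 in PDGF-NS, Anpep 7.25 and 187, and Notch3 63.5 and 16.3. Of 4 pericyte markers tested, 2 rose and 1 fell in PDGF-NS against control. The 10 endothelial markers summed to 10.8 to 11.1 FPKM in control libraries, 4.14 to 6.55 for IGF-NS and 5.92 to 9.38 for PDGF-NS. The 8 fibroblast markers summed to 329.7 to 456, 1932 to 2044 and 842 to 1340 FPKM in the same order, with Tcf21 listed at 0. Most of each sum was Lum, which averaged 340, 1795 and 1064 FPKM. Of 7 fibroblast markers tested against control, 3 rose and 0 fell in IGF-NS, and 4 rose and 1 fell in PDGF-NS. The 7 pericyte markers summed to 107 to 179, 158 to 162 and 297 to 416. The 8 macrophage and leukocyte markers gave 18.1 to 27.0, 23.0 to 31.2 and 43.9 to 89.8, the 8 cardiomyocyte markers 10.6 to 23.2, 8.66 to 19.8 and 1.96 to 5.33, and the 8 epithelial and mesothelial markers 92.4 to 288, 67.3 to 308 and 87.1 to 165, with Krt18 listed at 0. Most of these marker sums differed between the sets, and their part in the results below was not tested. In bulk RNA, fewer cells of a type and less RNA per cell cannot be told apart.

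Of the 9 genes, 8 passed the filter. Lama2, the alpha chain of skeletal muscle laminin, did not: it ranged from 0.105 to 0.422 FPKM over the 9 libraries and was not tested. In control cells Lamc1 stood highest at 277 ± 9.62 FPKM (SD, n = 3), the top 2.97% of tested genes, followed by Hspg2 at 239.7 ± 66.1, the top 3.40%. The libraries of these genes overlapped. Lama5 (85.3 ± 18.3 FPKM), Nid1 (83.5 ± 12.5), Lamb1 (73.8 ± 11.4) and Nid2 (71.5 ± 18.8) came next, with neighbours that overlapped, and below them lay Lamb2 (30.8 ± 8.17) and Lama4 (19.7 ± 4.51), which overlapped neither their upper neighbour nor each other. In IGF-NS the order was Lamc1, Hspg2, Nid2, Lamb1, Nid1, Lama5, Lama4 and Lamb2, where the libraries of the first 3 overlapped from one to the next, as did those of Lamb1 and Nid1. In PDGF-NS it was Lamc1, Hspg2, Lamb1, Nid2, Lama5, Nid1, Lama4 and Lamb2, with overlap from Lamb1 to Nid2, from Nid2 to Lama5 and from Lama4 to Lamb2. Lamc1 was the highest member in 7 libraries and Hspg2 in 2, the first control library and the third of IGF-NS.

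**Figure D1:**
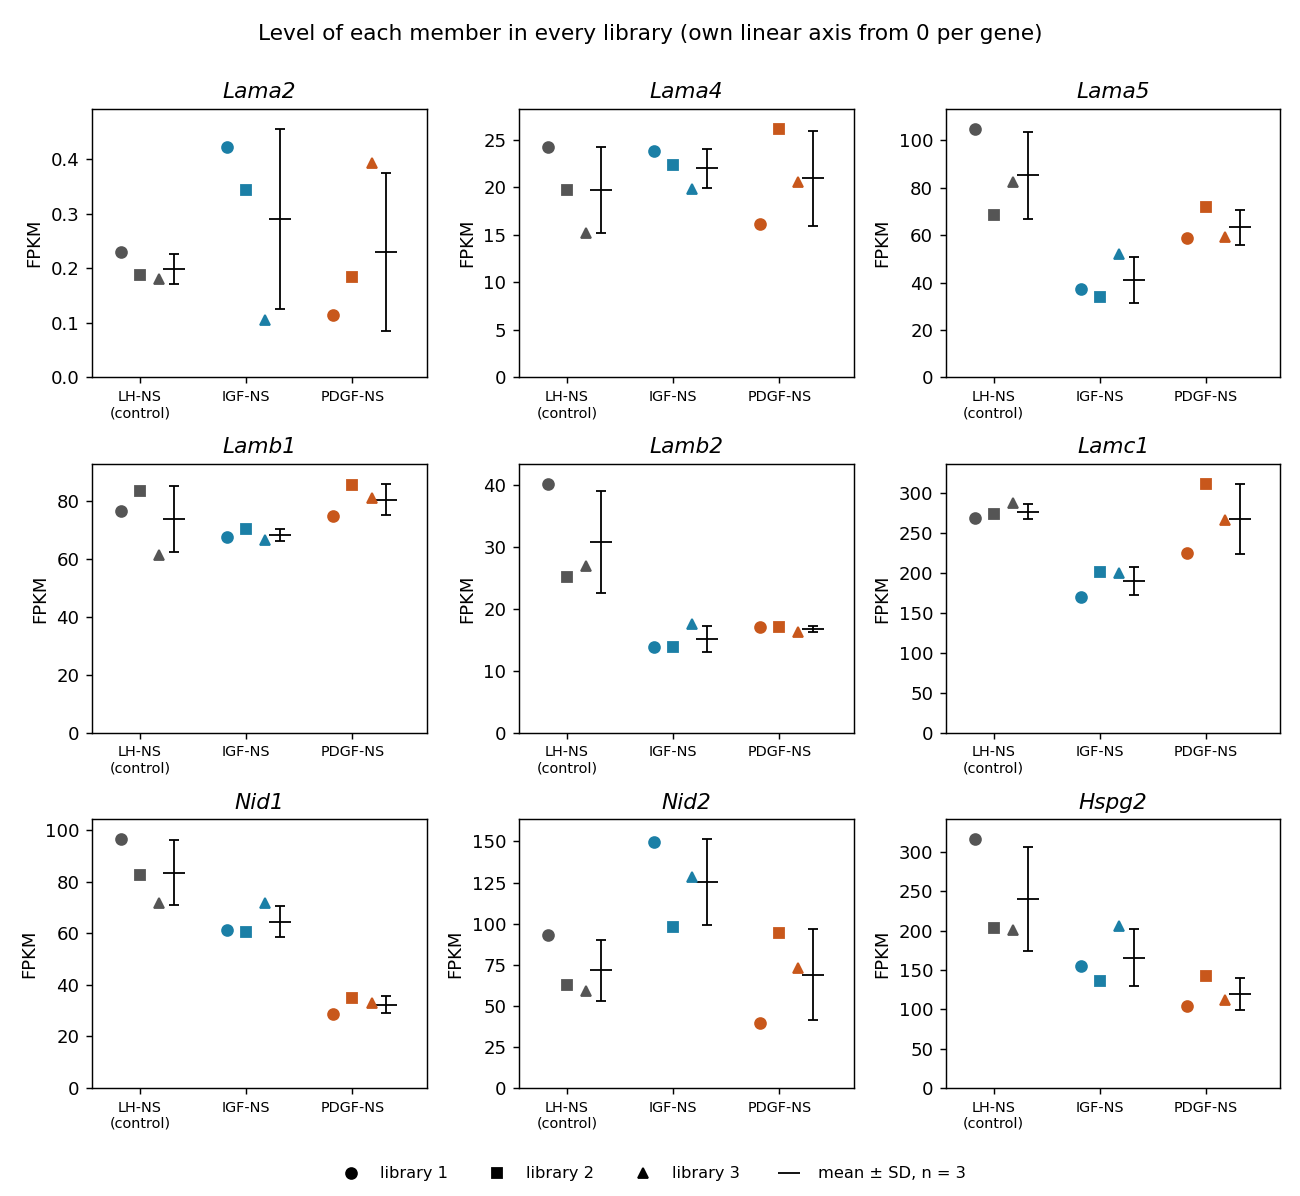
Level of each gene in FPKM (vertical axis, linear from 0, its own scale per panel) in the 3 libraries of each set, with the mean and SD beside them. Nid1 in PDGF-NS lies between 28.7 and 35.0 FPKM, below every other library, while Lamb2 lies at 17.6 or less in both treated sets and at 25.2 or more in control.

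Promoter sequences are shown for the genes that changed most (Nid1, Hspg2 and Lama5) and for Lama4, whose fold changes were among the smallest, because their base composition differed. RefSeq promoters on the GRCr8 build were matched for 7 of the 9 genes, all but Lamb2 and Nid2. Each line gives the 250 bases before the gene start, 5′ to 3′ on the gene's strand, with every GC box (GGGCGG, either strand) in capitals. Nid1 lies at chr17:93069036-93069285 (plus strand), Hspg2 at chr5:154960596-154960845 (plus), Lama5 at chr3:187695975-187696224 (minus) and Lama4 at chr20:43946648-43946897 (plus).
Nid1: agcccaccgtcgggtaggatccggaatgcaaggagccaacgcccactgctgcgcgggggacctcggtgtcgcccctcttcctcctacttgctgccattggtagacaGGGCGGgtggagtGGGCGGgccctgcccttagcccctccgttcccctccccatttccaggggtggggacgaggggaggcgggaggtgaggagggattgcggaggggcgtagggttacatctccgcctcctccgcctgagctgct
Hspg2: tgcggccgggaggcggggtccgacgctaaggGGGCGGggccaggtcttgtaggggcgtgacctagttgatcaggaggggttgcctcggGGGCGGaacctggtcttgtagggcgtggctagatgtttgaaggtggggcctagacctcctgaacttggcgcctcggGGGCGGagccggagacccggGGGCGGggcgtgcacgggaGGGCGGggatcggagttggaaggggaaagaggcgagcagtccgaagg
Lama5: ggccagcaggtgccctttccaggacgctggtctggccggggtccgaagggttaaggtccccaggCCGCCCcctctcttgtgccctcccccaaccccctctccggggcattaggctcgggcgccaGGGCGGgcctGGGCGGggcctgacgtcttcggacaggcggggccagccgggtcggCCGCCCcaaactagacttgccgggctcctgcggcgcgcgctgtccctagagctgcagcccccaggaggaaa
Lama4: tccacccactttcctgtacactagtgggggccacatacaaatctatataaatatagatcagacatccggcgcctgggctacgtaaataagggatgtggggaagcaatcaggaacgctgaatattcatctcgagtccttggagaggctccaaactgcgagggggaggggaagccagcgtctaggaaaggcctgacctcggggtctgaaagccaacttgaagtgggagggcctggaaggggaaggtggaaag
The GC box, a site for Sp-family factors, was present in 6 of the 7 matched promoters and in 30.5% of 33469 rat promoters of the same length. Hspg2 and Lamc1 held 5 each, Lama5 4, Nid1 and Lamb1 2 each, Lama2 1 and Lama4 none, and 7.41% of all promoters held 3 or more. GC content was 68.0% for Nid1, 69.2% for Hspg2, 72.8% for Lama5 and 53.2% for Lama4, against a median of 51.2% over all promoters. Of the matched promoters not shown, Lamc1 had 71.2%, Lamb1 62.0% and Lama2 55.6%. Lamb1, like Lama4, was called in no comparison. A link between promoter composition and change was not tested. Lama4 alone of the 7 held TATAAA (12.9% of all promoters), 205 bases before the start. CCAAT was found in Lama2 and Nid1 (34.0% of all), CATTCC in Lamc1 and Nid1 (12.1%), the CArG box in Lama2 (1.497%) and TGANTCA in none (6.34%), all on both strands. A match describes the letters only, and the start sites used by these cells were not measured.

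Against control, IGF-NS had lower Lama5, Lamb2 and Lamc1, PDGF-NS had lower Nid1, Hspg2 and Lamb2, and no gene of the 8 rose in either. Lamb2 was thus the gene called lower in both, and the 2 comparisons share their control libraries. In IGF-NS 3 of 8 were called lower, where 7.48% of all tested genes were, and 0 of 8 higher, where 17.4% were. In PDGF-NS 3 of 8 were called lower (10.2% of all genes) and 0 of 8 higher (20.7%). Between the treated sets 1 of 8 was higher in PDGF-NS, Lamc1, and 1 of 8 lower, Nid1 (8.33% and 7.55% of all genes). The median log2 fold change over the 8 genes was -0.44, -0.26 and 0.03 in these comparisons, beside 0.15, 0.13 and -0.02 over all genes tested. The 8 genes summed with Lama2 to 882 ± 121 FPKM in control, 692 ± 63.5 in IGF-NS and 669.9 ± 110 in PDGF-NS. Within sets many of the genes varied together. The first control library was the highest of its set for 6 of the 8. The first PDGF-NS library was the lowest of its set for 7, and the second was the highest for 7. The counts of called genes are therefore not counts of independent results.

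**Figure D2:**
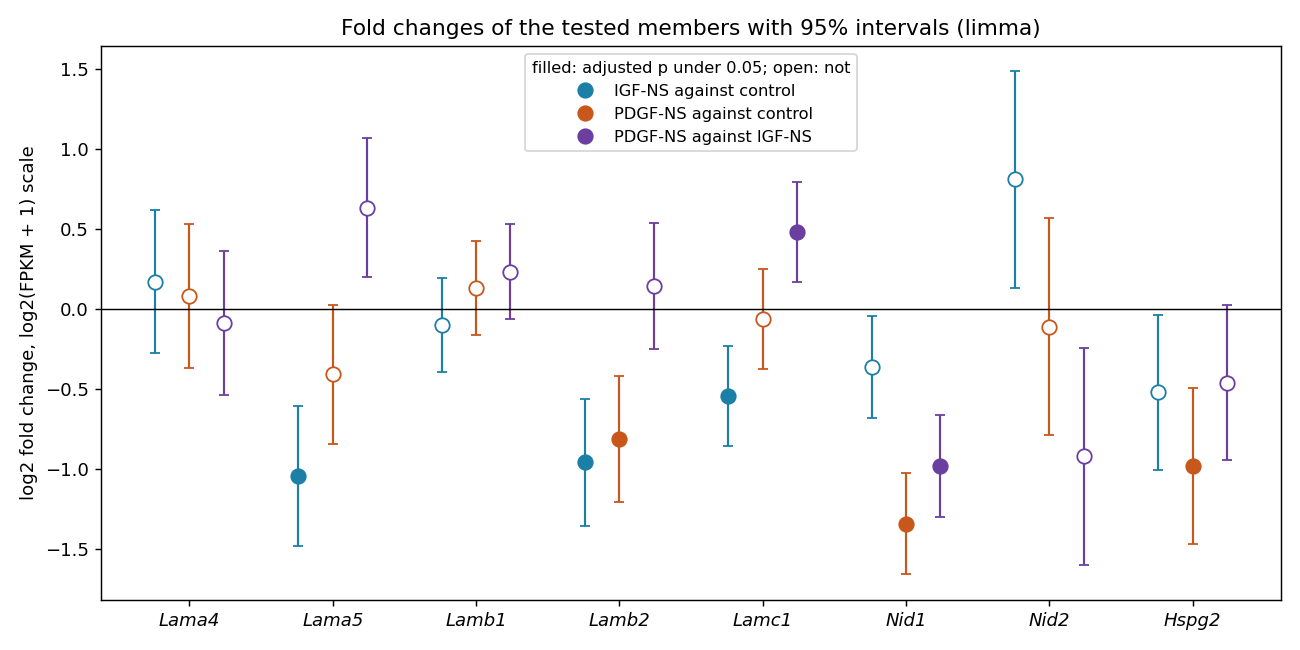
Fold change of each tested gene on the log2(FPKM + 1) scale (vertical axis) in the 3 comparisons, with 95% intervals from limma; filled points passed an adjusted p of 0.05. The lowest point is Nid1 in PDGF-NS against control at -1.34, and the intervals of Lama4 and Lamb1 span 0 in every comparison.

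Among the alpha chains, Lama5, the alpha chain of broadly expressed laminins that bind integrins strongly, fell in IGF-NS. Its control libraries read 105, 68.6 and 82.5 FPKM, the IGF-NS libraries 37.3, 33.8 and 51.9, and the PDGF-NS libraries 58.8, 71.8 and 59.4. Every IGF-NS library lay below every library of the other sets, while PDGF-NS overlapped control. The log2 fold change was -1.04 ± 0.20 (SE) in IGF-NS against control (limma, adjusted p = 0.0046). It was -0.41 in PDGF-NS (95% interval -0.84 to 0.03, adjusted p = 0.14) and 0.63 between the treated sets (adjusted p = 0.054). That last comparison passed the threshold in 5 of 20 alternative analyses (adjusted p from 0.0016 to 0.17).

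Lama4, an alpha chain of laminins in vessel walls, was not called in any comparison. It read 24.2, 19.7 and 15.2 FPKM in control libraries, 23.8, 22.4 and 19.8 in those of IGF-NS, and 16.2, 26.2 and 20.5 in those of PDGF-NS, so all 3 sets overlapped. The fold change had a 95% interval of -0.28 to 0.62 in IGF-NS against control and of -0.37 to 0.53 in PDGF-NS against control. Its sign in the latter turned under 3 scalings, to between -0.055 and -0.039. As a share of the summed alpha chains, Lama4 made up 18.7%, 22.3% and 15.6% in control libraries, 38.7%, 39.6% and 27.6% in those of IGF-NS, and 21.5%, 26.7% and 25.6% in those of PDGF-NS. The IGF-NS libraries stood above the others without overlap, and the mean difference from control was 16.4 percentage points. With 3 libraries against 3 the smallest p an exact permutation test can give is 0.1, and this difference had that value (two-sided, 0.15 adjusted over the 9 share tests). PDGF-NS was 5.74 points above control (exact permutation p = 0.2, adjusted 0.26) and differed from IGF-NS by -10.7 points (exact p = 0.1, adjusted 0.15).

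Of the beta chains, Lamb2, the beta chain of laminins at mature vessels and neuromuscular junctions, fell in both treated sets, whereas Lamb1, the beta chain made widely from early development on, was not called. Lamb2 read 40.2, 25.2 and 27.0 FPKM in control libraries, 13.9, 13.9 and 17.6 in those of IGF-NS, and 17.0, 17.0 and 16.2 in those of PDGF-NS. All 6 treated libraries lay below the control libraries, and the treated sets overlapped each other. The log2 fold change was -0.96 ± 0.18 in IGF-NS (limma, adjusted p = 0.0042) and -0.81 ± 0.18 in PDGF-NS (adjusted p = 0.0064). Between the treated sets it was 0.14, with a 95% interval of -0.25 to 0.54. Lamb1 read 76.7, 83.4 and 61.3 FPKM in control libraries, 67.7, 70.4 and 66.5 in those of IGF-NS, and 74.7, 85.4 and 81.1 in those of PDGF-NS. The IGF-NS libraries lay inside the control range and those of PDGF-NS across its upper end, with 95% intervals of -0.40 to 0.19 and -0.16 to 0.43 for the log2 fold change. Between the treated sets the Lamb1 libraries did not overlap, but the difference of 0.23 was not called (adjusted p = 0.28).

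The Lamb2 share of the summed beta chains was 34.4%, 23.2% and 30.6% in control libraries, 17.0%, 16.5% and 20.95% in those of IGF-NS, and 18.5%, 16.6% and 16.6% in those of PDGF-NS. It was below every control library in all treated libraries, with mean differences of -11.3 points in IGF-NS and -12.1 points in PDGF-NS. Both differences had the smallest exact permutation p, 0.1 (adjusted 0.15). The treated sets differed by -0.889 points (exact permutation p = 0.7, adjusted 0.79).

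Lamc1, the gamma chain shared by most laminins, read 269, 274 and 288 FPKM in control libraries. It read 170.0, 201 and 199.6 in those of IGF-NS, and 225, 312 and 267 in those of PDGF-NS. IGF-NS lay below both other sets without overlap, and PDGF-NS spread to both sides of control. The fall in IGF-NS was -0.54 ± 0.14 on the log2 scale (limma, adjusted p = 0.019). It missed the threshold without the third control library (adjusted p = 0.058) or without the first IGF-NS library (0.083), over a range of 0.00054 to 0.083 in 20 alternatives. In PDGF-NS against control the log2 difference was -0.06 (95% interval -0.37 to 0.25). The higher level in PDGF-NS than in IGF-NS, 0.48 ± 0.14 (adjusted p = 0.043), lost its call in 12 of 20 alternatives (adjusted p from 0.00094 to 0.15), among them 7 of the 9 that left out 1 library, all but those without the first control or the first PDGF-NS library. Lamc1 stood at 2.71 ± 0.549 times the summed alpha chains in control, 3.03 ± 0.453 in IGF-NS and 3.16 ± 0.164 in PDGF-NS, ranges that overlapped.

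**Figure D3:**
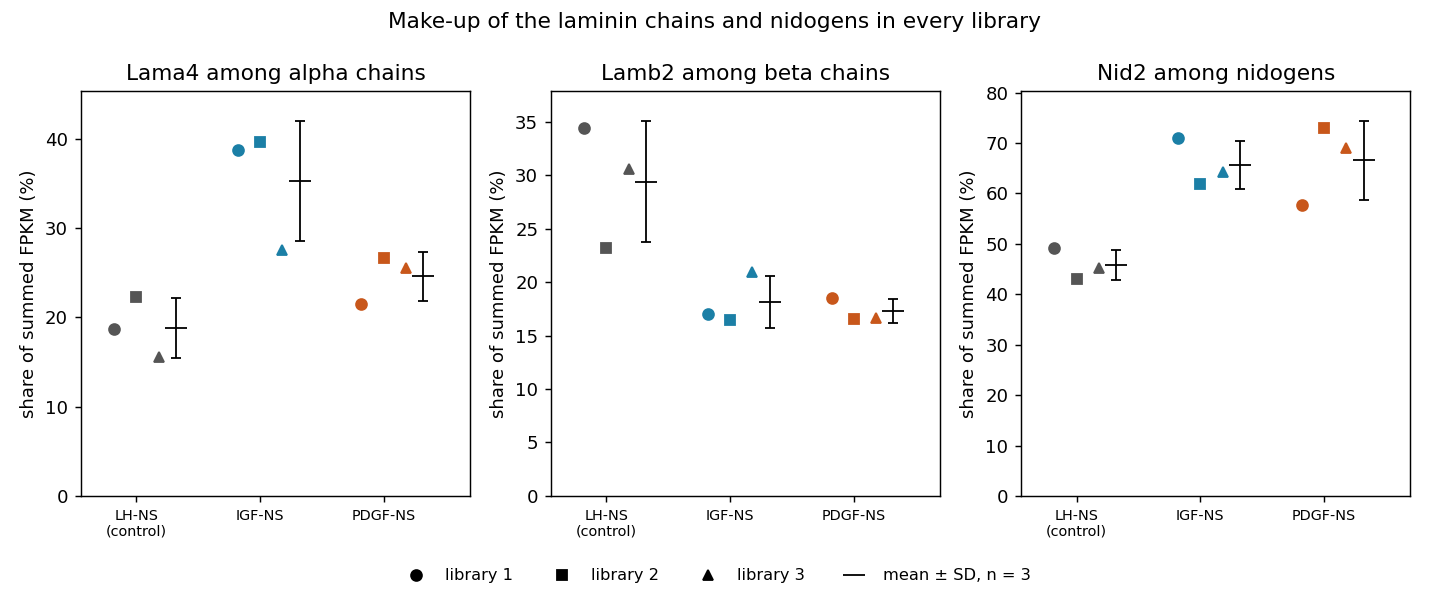
Share of Lama4 in the summed FPKM of the 3 alpha chains, of Lamb2 in the 2 beta chains and of Nid2 in the 2 nidogens (vertical axis, percent, from 0), per library with the mean and SD. The Lamb2 share is 23.2% or more in control and 20.95% or less in the treated sets, and the Nid2 share is 49.1% or less in control and 57.8% or more in the treated sets.

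Of the nidogens, Nid1, the main laminin to collagen IV linker, fell in PDGF-NS, by more than any other of the 8 genes in that comparison. It read 96.4, 82.5 and 71.5 FPKM in control libraries, 61.3, 60.6 and 71.5 in those of IGF-NS, and 28.7, 35.0 and 33.0 in those of PDGF-NS. The highest PDGF-NS library was below the lowest library of both other sets, and the highest IGF-NS library equalled the lowest control library to 3 digits. The log2 fold change in PDGF-NS was -1.34 ± 0.14 against control (limma, adjusted p = 0.00011), a level 2.59 times lower, and -0.98 ± 0.14 against IGF-NS (adjusted p = 0.0013). Both calls held in 20 of 20 alternatives. In IGF-NS against control it was -0.36 (adjusted p = 0.092), and it passed under median ratio scaling (0.022), quantile normalization (0.036) and array weights (0.0054), with a range of 0.0054 to 0.23 over 20 alternatives.

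Nid2, the second nidogen and a partial substitute for Nid1, read 93.1, 62.5 and 59.0 FPKM in control libraries, 149.8, 98.0 and 128 in those of IGF-NS, and 39.3, 94.1 and 73.3 in those of PDGF-NS. The IGF-NS libraries were the 3 highest, the lowest of them 98.0 against 94.1 in PDGF-NS and 93.1 in control. The log2 difference of IGF-NS from control was 0.81 ± 0.30 and missed the threshold (limma, adjusted p = 0.078). It passed in 4 of 20 alternatives: with only these sets in the fit (0.046), with array weights (0.0013), without the first control library (0.049) and without the first PDGF-NS library (0.028), where the range was 0.0013 to 0.23. PDGF-NS differed from control by -0.11 (95% interval -0.79 to 0.57) and from IGF-NS by -0.92 ± 0.30 (adjusted p = 0.068, 0.0054 to 0.20 over the alternatives).

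Nid2 made up a larger share of the summed nidogens in every treated library than in any control library. The share was 49.1%, 43.1% and 45.2% in control libraries, 71.0%, 61.8% and 64.2% in those of IGF-NS, and 57.8%, 72.9% and 69.0% in those of PDGF-NS. The mean differences from control were 19.9 and 20.7 percentage points (exact two-sided permutation p = 0.1 for each, adjusted 0.15). The treated sets differed by 0.898 points (exact permutation p = 0.9), although the summed nidogens stood at 190 ± 27.6 FPKM in IGF-NS and 101 ± 30.9 in PDGF-NS, beside 155 ± 30.8 in control.

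Perlecan (Hspg2), which binds growth factors such as the fibroblast growth factors through its heparan sulfate chains, fell in PDGF-NS. It read 316, 203 and 200.3 FPKM in control libraries, 155, 136 and 206 in those of IGF-NS, and 104, 142 and 112 in those of PDGF-NS. The first control library stood well above the rest, all PDGF-NS libraries lay below all control libraries, and the third IGF-NS library lay inside the control range. The fall in PDGF-NS was -0.98 ± 0.22 on the log2 scale (limma, adjusted p = 0.0071), to a level 2.01 times lower, and it held in 20 of 20 alternatives, the one without the first control library included. In IGF-NS against control the difference was -0.52 ± 0.22 (adjusted p = 0.11). It passed under median ratio scaling (0.046), array weights (0.026) and without the third IGF-NS library (0.049), with a range of 0.026 to 0.30 over the alternatives. Between the treated sets it was -0.46 (95% interval -0.95 to 0.02).

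The levels of the linkers were also set against that of the laminin gamma chain. These ratios were chosen after the values were seen and are given without a test. Nid1 stood at 0.302 ± 0.0549 of Lamc1 in control, 0.340 ± 0.0335 in IGF-NS and 0.121 ± 0.00795 in PDGF-NS. For Hspg2 the ratios were 0.870 ± 0.265, 0.873 ± 0.182 and 0.446 ± 0.0230. For both genes the libraries of IGF-NS and control overlapped, and those of PDGF-NS were below both sets without overlap. The summed nidogens to Lamc1 gave 0.562 ± 0.129, 1.01 ± 0.227 and 0.372 ± 0.0604, with no overlap between any of the sets.

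**Figure D4:**
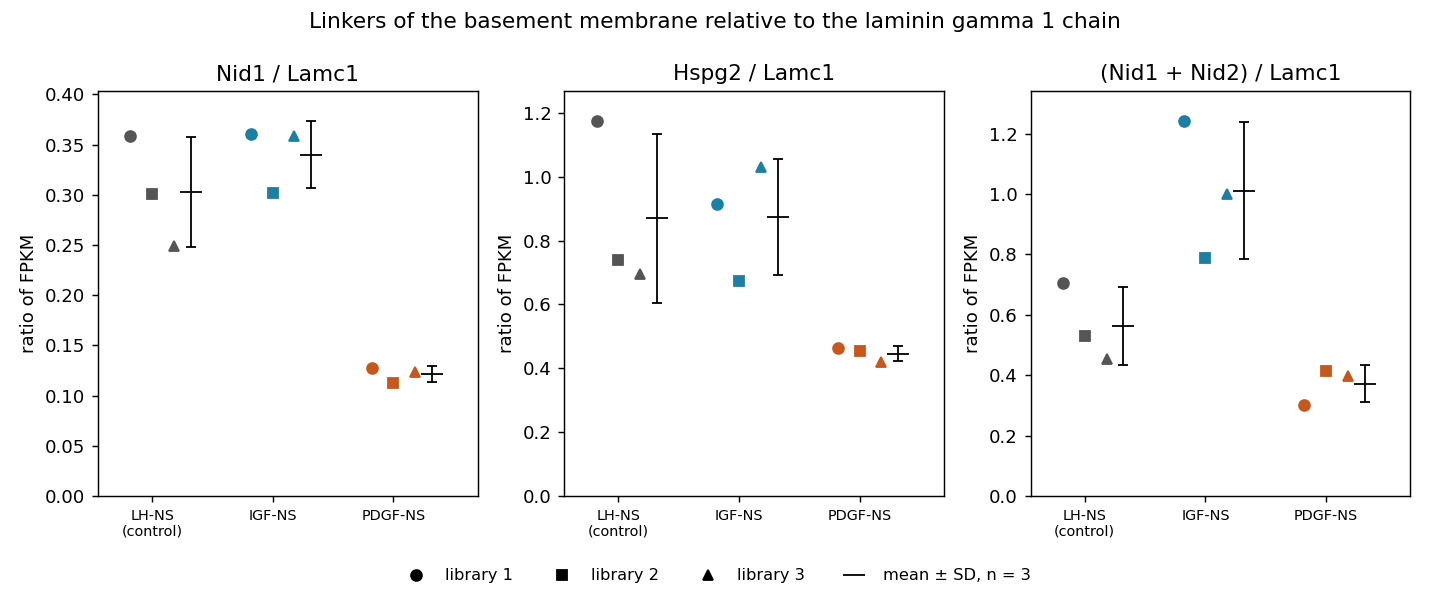
Ratio of the FPKM of Nid1, of Hspg2 and of both nidogens to that of Lamc1 (vertical axis, from 0) in each library, with the mean and SD per set. PDGF-NS lies at 0.128 or less for Nid1 and at 0.463 or less for Hspg2, below all 6 other libraries.

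The members also differed in how they varied over the 9 libraries. With each gene centred on its own mean of log2(FPKM + 1), the pair with the smallest root mean square difference was Lama4 and Lamb1 (0.21), followed by Lamb1 and Lamc1 (0.24), Lama5 and Lamb2 (0.24) and Nid1 and Hspg2 (0.26). The farthest pair was Lama5 and Nid2 (0.87). Values were centred but not scaled, so genes that vary little lie close whatever their pattern. Lama4 and Lamb1 were called in no comparison, so their small difference does not show a shared pattern. Among 8685 genes averaging 5 FPKM or more, the gene most like Nid1 was Col4a1, the alpha 1 chain of collagen IV that nidogen links to laminin, at 0.10. Its level was 92.2 ± 8.75 FPKM in control, 71.8 ± 4.14 in IGF-NS and 39.8 ± 1.80 in PDGF-NS. Ctf1, the cytokine cardiotrophin 1, came next to Nid1 (0.11). For Hspg2 the nearest were Irs1, an adaptor of the insulin and IGF-1 receptors, and COL4A2, the collagen IV partner chain (0.12 each), and COL4A2 stood at 36.7 ± 10.4, 26.8 ± 7.21 and 18.5 ± 1.80 FPKM. Lama5 was nearest to Zfhx3, a homeobox transcription factor (0.09), and to Abhd2 (0.12). Lamb2 was nearest to Calhm2 and to PNPLA2, the adipose triglyceride lipase (0.10 each), and Lamc1 to the phosphatase Ctdsp2 (0.10) and to the heparan sulfate proteoglycan Sdc2 (0.11). These are descriptions over 9 libraries that share 3 sets.

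Other genes of the basement membrane were counted in lists, to be read beside the shares over all tested genes. Against control, 7.48% of all tested genes were called lower and 17.4% higher in IGF-NS. In PDGF-NS 10.2% were called lower and 20.7% higher. Of the other laminin chains, Lamb3 and Lama3, chains of epithelial laminin, did not reach the filter. Lamb3 ranged from 1.03 to 1.57 FPKM in PDGF-NS and was at 0.0770 or less in every other library, and Lama3 reached 1.37 in PDGF-NS against 0.298 or less elsewhere.

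Of 4 tested basement membrane collagens, 1 fell in IGF-NS and 2 fell and 1 rose in PDGF-NS against control, with list medians of -0.25 and -0.18. Col4a1 was the gene lower in both, at -0.35 ± 0.11 in IGF-NS (limma, adjusted p = 0.047, lost in 10 of 20 alternatives, 0.002 to 0.16) and -1.19 ± 0.11 in PDGF-NS (adjusted p = 6e-05). COL4A2 fell in PDGF-NS by 0.92 on the log2 scale (adjusted p = 0.012). COL15A1, a collagen of the outer face of the membrane, rose there from 5.21 ± 0.272 to 13.8 ± 1.65 FPKM. The 1 that rose became 2 without the first control or the first PDGF-NS library. Of 15 other membrane glycoproteins, 5 fell and 2 rose in IGF-NS, and 9 fell and 1 rose in PDGF-NS (list medians -0.36 and -0.91). The 5 became 3 without the first control library, without the second IGF-NS library or with only these sets in the fit, the 2 became 1 without the second control library, the third control library or the first IGF-NS library, and the 1 became 0 in 8 of 20 alternatives, among them those without the second control, the third control, the first PDGF-NS or the second PDGF-NS library. Npnt, a ligand of integrin alpha 8 beta 1, fell from 41.7 ± 4.14 FPKM to 15.4 ± 1.77 in IGF-NS and 5.29 ± 1.58 in PDGF-NS. Tinagl1, a matricellular glycoprotein, fell from 134 ± 11.1 to 56.9 ± 33.1 and 40.5 ± 8.32. Matn2, a matrilin, rose in IGF-NS from 13.5 ± 1.87 to 30.4 ± 4.23 FPKM.

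Of 13 tested receptors of laminin and perlecan, 9 fell and 0 rose in IGF-NS (list median -0.90). In PDGF-NS 6 fell and 0 rose (list median -0.55). Among all tested genes, 7.48% fell and 17.4% rose in IGF-NS and 10.2% fell and 20.7% rose in PDGF-NS. The 9 in IGF-NS became 5 without the third control library or without the first IGF-NS library. Itga7, the alpha subunit of the main laminin integrin of muscle, fell from 23.2 ± 10.4 FPKM in control to 3.30 ± 0.687 in IGF-NS (limma, adjusted p = 0.00092) and stood at 26.9 ± 10.0 in PDGF-NS, not called against control (0.66) and 2.64 ± 0.33 above IGF-NS on the log2 scale (adjusted p = 0.00058). Mcam, which binds laminins with the alpha 4 chain, fell from 60.6 ± 7.80 to 17.2 ± 2.50 and 9.33 ± 2.58 FPKM. Bcam, which binds the alpha 5 chain, fell from 17.1 ± 4.27 to 7.27 ± 5.89 FPKM in IGF-NS, a call lost in 11 of 20 alternatives (adjusted p from 0.0003 to 0.12), and to 4.45 ± 0.837 in PDGF-NS, a call lost without the third PDGF-NS library (0.052, range 0.00086 to 0.052). The syndecan Sdc1 fell in PDGF-NS from 53.1 ± 17.4 to 18.6 ± 3.28 FPKM.

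The dystrophin complex, which ties laminin through dystroglycan to actin, had 2 of 10 tested genes lower in IGF-NS and 3 higher and 2 lower in PDGF-NS. Dtna (dystrobrevin alpha) fell from 24.1 ± 4.45 FPKM to 8.76 ± 1.93 and 4.39 ± 0.613, while Sgca, a sarcoglycan, rose in PDGF-NS from 2.87 ± 0.625 to 10.6 ± 1.74 FPKM. Dmd itself was listed at 0 in every library. Of 11 genes for the sugar chain on dystroglycan that laminin binds, 1 rose and 1 fell in IGF-NS and 1 rose and 2 fell in PDGF-NS, with list medians of 0.29 and 0.00. The rise in IGF-NS, that of Tmem5, was lost in 15 of 20 alternatives, 8 of them without 1 library each, and the 2 falls in PDGF-NS became 1 without any single control library and 0 without any single PDGF-NS library. Of 20 genes that make or edit heparan sulfate, the sugar of perlecan, 2 rose and 2 fell in IGF-NS (list median -0.04). In PDGF-NS 4 rose and 6 fell (list median 0.03). The 2 that rose in IGF-NS became 4 without the first control library. Taken over all tested genes, 17.4% rose and 7.48% fell in IGF-NS and 20.7% rose and 10.2% fell in PDGF-NS. The 4 of 20 that rose in PDGF-NS were near that share. Of the endosulfatases, which remove sulfate groups from these chains, Sulf1 fell in PDGF-NS from 153 ± 21.1 to 22.9 ± 2.68 FPKM (limma, adjusted p = 4.2e-06). Sulf2 rose in IGF-NS from 101 ± 8.88 to 267 ± 21.9 FPKM (limma, adjusted p = 0.00072). In PDGF-NS it stood at 70.7 ± 20.5, a log2 difference of -0.54 from control (adjusted p = 0.046) and of -1.93 from IGF-NS (adjusted p = 0.0001). Hs6st1, which adds 6-O-sulfate, fell from 45.9 ± 3.34 to 21.6 ± 2.60 and 20.7 ± 2.72 FPKM.

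**Figure D5:**
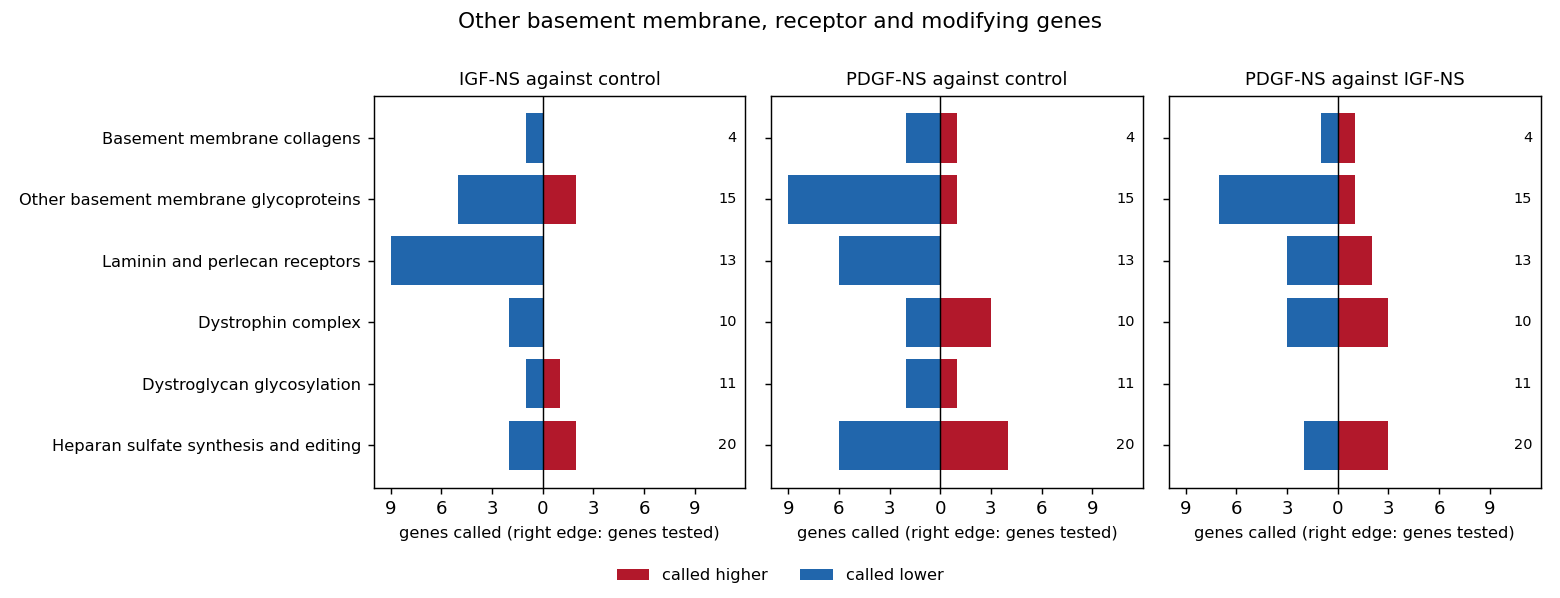
Number of genes called higher (right of 0) and lower (left of 0) in each list of other basement membrane, receptor and modifying genes with 4 or more tested, in the 3 comparisons, with the number tested at the right edge. The receptors have 9 and 6 genes lower and none higher against control, and the other glycoproteins 9 lower and 1 higher in PDGF-NS. Against control, 7.48% of all tested genes were lower and 17.4% higher in IGF-NS, and 10.2% lower and 20.7% higher in PDGF-NS.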

How the data were processed

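Per the labels' protocols, Trizol RNA went into Lexogen SENSE mRNA v2 libraries. The submitters' processing notes name GSNAP and Cufflinks. Tool versions, genome build, annotation and use of strand are not given in sources used here. FPKM for each gene and library is what the authors deposited. These are not counts, so a count model was left out and read numbers are unknown. Of 26407 rows, 4 genes with failed values (999999999 in 10 cells) and 2 duplicate all-zero rows were left out. A listed 0 can be a failed estimate, since 31 genes with a median over 5 FPKM had a library at 0; no member did. Columns were mapped to samples by the column name in each sample's description.

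All 9 libraries entered 1 limma fit (limma 3.58.1, R 4.3.3, variances following the mean) on log2(FPKM + 1), with the set as the only term and 3 two-sided contrasts; folds on this scale understate changes of low genes. Shares were compared by exact permutation tests (scipy 1.17.1). The members and lists were chosen with earlier results of these data known. Named genes are the members, up to 3 called genes of each list and comparison with the largest change, of which part are printed, and the 2 genes most like each called member; the marker genes, Lamb3, Lama3 and Dmd were named after their values were seen. The fit was tested on simulated data. Alternatives were the pseudocount, the filter, 3 scalings, array weights, no variance trend, 2 sets per fit, a replicate block and leaving out each library. Some genes of the lists are not reported here.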

Additional observations from a re-analysis of the deposited data

How the results depend on the processing

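The counts of 0 higher and 3 lower of 8 in PDGF-NS against control held in 20 of 20 alternatives, as did the calls of Lama5 and Lamb2 in IGF-NS against control and of Nid1 between the treated sets. In IGF-NS against control, 1 of 8 was higher with only these sets in the fit and 1 with array weights (0 to 1 leaving out a library), and 5 were lower with median ratio scaling and 5 with array weights (2 to 4 leaving out a library). Between the treated sets, the 1 higher became 0 with no filter, a common sum, quantile normalization or no variance trend and 2 with median ratio scaling or array weights (0 to 2 leaving out a library), and the 1 lower became 2 with a common sum or quantile normalization and 3 with array weights (1 to 2). Fitted log2 differences of genes that were not called turned sign in PDGF-NS against control: Lama4 to -0.055 (common sum), -0.040 (median ratio) and -0.039 (quantile), Lamb1 to -0.010 (common sum) and -0.0052 (quantile) and Nid2 to 0.19 (array weights). Leaving out a library gave -0.084 to 0.25 for Lama4, -0.18 to 0.058 for Lamc1 and -0.38 to 0.24 for Nid2 there, and -0.25 to 0.077 for Lama4 between the treated sets, where the Lamb2 share differed by -1.73 to 0.51 points and the Nid2 share by -2.27 to 5.28. The cause was not tested.

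Same-numbered libraries of IGF-NS and control correlated at 0.17, 0.25 and -0.28 in their deviations from the set means. For PDGF-NS and control the values were -0.12, -0.19 and -0.061, and for PDGF-NS and IGF-NS -0.12, -0.074 and 0.066. Libraries with unlike numbers ranged from -0.51 to 0.41. Deviations within a set of 3 sum to 0, so these values cannot decide whether replicate numbers pair the libraries. With a replicate block the counts stayed at 0 and 3, 0 and 3, and 1 and 1 of 8, and calls over all genes went from 2827 to 2457, 3521 to 3221 and 1807 to 1530. Array weights raised those calls to 5479, 5460 and 4161. A common sum moved the genes lower between the treated sets from 859 to 1480, and quantile normalization those lower in PDGF-NS against control from 1166 to 1752. Without read numbers, no counting error can be given, and 3 libraries per set limit the precision.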
